A study of Mus musculus with 12 samples.

Results

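Acyl-CoA thioesterases cut fatty acyl-CoA into a free fatty acid and coenzyme A. Their substrates are the activated fatty acids that the heart sends into oxidation, storage and membrane lipids, so the enzymes set acyl-CoA and free coenzyme A levels in the cytosol, in mitochondria and in peroxisomes, where different family members work. In rodents, Acot1 and Acot2 are known for their induction by fasting and by ligands of the nuclear receptor PPAR alpha. The 6 genes described here are Acot1, Acot2, Acot7, Acot8, Acot9 and Acot13, out of 27179 genes in the deposited count table. They were taken by name, around Acot1 and Acot2, which were chosen by their measured counts in these same hearts, for a fall after transverse aortic constriction (TAC) that differed with prenatal exposure. The levels of Acot1 and Acot2 in these 12 hearts are therefore a description and carry no test. All 6 genes had enough counts to be tested, as did 13626 genes in all.

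RNA of whole frozen hearts from 12 mice was sequenced after ribosomal RNA depletion, with 3 hearts in each of 4 groups. Diesel TAC hearts came from mice exposed in utero to diesel exhaust from embryonic day 0.5 until late gestation and given TAC at 12 weeks. TAC narrows the aorta, here to a 27-gauge needle, and loads the left ventricle with pressure. Diesel sham hearts had the same exposure and a sham operation. Air TAC and air sham hearts had filtered air in utero and the same operations. All offspring lived in filtered air after birth, were imaged by echocardiography at 11 weeks and gave their hearts at 15 weeks, and no group carried a named allele. The sources used here name no strain, sex, litter or sequencing run for each heart. No such term could be fitted, and a sequencing run that fell together with a group could not be told apart from it. Hearts of 1 litter would make the p-values of exposure too small, and all p-values measure the spread between these samples.

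Library totals ran from 5534685 to 13265816 counts. Levels are in CPM, counts scaled by TMM factors to a common library size, and 3 counts in a library stood for 0.218 to 0.501 CPM. Markers of ventricular cardiomyocytes were all detected in every group. The surgery labels held for a hallmark gene of pressure load: Nppb, the B-type natriuretic peptide, lay at 268 to 563 CPM in the 6 TAC hearts and at 68.9 to 130.04 CPM in the 6 sham hearts. Acot1 rested on the fewest counts of the 6 genes, with 17 in each diesel TAC library, where it was above that floor.

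Acot1 (gene number 26897) and Acot2 (gene number 171210) are neighbours on the plus strand of chromosome 12 in the GRCm38 annotation, at chr12:84009502-84017670 and chr12:83987861-83993877. Acot1 encodes the cytosolic enzyme and Acot2 the mitochondrial one. Their coding sequences are 1260 and 1362 bases long and were identical at 95.2% of 1239 aligned bases. The stretch that tells them apart at the protein's start is shown first, from GENCODE M21 transcripts. Capitals mark the 123 coding bases of Acot2 that lie before the position aligned with the start of Acot1, where the mitochondrial enzyme is known to carry its targeting sequence.
Acot2 coding bases 1 to 153: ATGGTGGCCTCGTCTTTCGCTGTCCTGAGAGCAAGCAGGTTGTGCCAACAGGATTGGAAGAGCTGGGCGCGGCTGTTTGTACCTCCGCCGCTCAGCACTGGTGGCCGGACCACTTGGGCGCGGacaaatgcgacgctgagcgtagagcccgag
Acot1 coding bases 1 to 30: atggaggcgacgctgaaccttgagccctcg

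Further along, the sequences alternate between runs that cannot be told apart and runs that can, which bears on how far the 2 rows of counts are separate measurements. The longest identical run is 273 bases, coding bases 887 to 1159 of Acot1 and 1010 to 1282 of Acot2. It is printed in capitals within Acot1, with 13 flanking bases on each side.
Acot1 coding bases 874 to 1172: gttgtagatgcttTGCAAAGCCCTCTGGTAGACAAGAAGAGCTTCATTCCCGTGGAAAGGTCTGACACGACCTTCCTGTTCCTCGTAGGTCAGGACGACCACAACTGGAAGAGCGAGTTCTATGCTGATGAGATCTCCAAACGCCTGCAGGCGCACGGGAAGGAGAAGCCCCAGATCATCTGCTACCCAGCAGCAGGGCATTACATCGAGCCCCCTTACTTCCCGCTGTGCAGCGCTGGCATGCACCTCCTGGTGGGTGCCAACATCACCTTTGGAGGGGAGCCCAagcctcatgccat
Just before that run lies the 90-base window with the most differences, 14, which are in capitals in both genes.
Acot1 coding bases 797 to 886: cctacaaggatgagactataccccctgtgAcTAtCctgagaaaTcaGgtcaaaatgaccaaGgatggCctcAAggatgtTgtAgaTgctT
Acot2 coding bases 920 to 1009: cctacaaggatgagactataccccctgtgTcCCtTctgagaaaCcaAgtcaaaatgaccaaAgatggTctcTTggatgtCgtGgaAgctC

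Of all 100-base windows along its representative GENCODE transcript, 16.5% of those of Acot1 also occurred, base for base, in Acot2, and 21.9% occurred in some other gene. For Acot2, 17.1% of windows occurred in Acot1. The sources used here do not say how reads that map to several places were counted, so reads from the shared windows may have been dropped, split or given to either gene. Acot7 and Acot13 shared no 100-base window with another gene. Acot8 shared 13.8% of its windows with Snx21, which overlaps it by 246 exon bases on the opposite strand, and the strand setting of the counting is likewise not given. Acot9 shared 0.968% of its 100-base windows and 20.2% of its 50-base windows with Acot10, whose coding sequence is 97.2% identical.

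The promoters of Acot1 and Acot2 are shown because these 2 neighbours are the genes chosen for their fall with TAC. The 250 bases before each annotated start, from RefSeq on GRCm38.p6, plus strand, are chr12:84009252-84009501 for Acot1 and chr12:83987611-83987860 for Acot2. They have no capitals, since no motif searched was found in them.
Acot1 promoter: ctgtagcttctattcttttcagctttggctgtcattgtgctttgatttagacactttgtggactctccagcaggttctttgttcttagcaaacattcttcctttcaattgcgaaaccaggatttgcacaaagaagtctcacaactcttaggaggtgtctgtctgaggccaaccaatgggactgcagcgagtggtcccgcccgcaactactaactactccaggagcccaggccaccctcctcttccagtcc
Acot2 promoter: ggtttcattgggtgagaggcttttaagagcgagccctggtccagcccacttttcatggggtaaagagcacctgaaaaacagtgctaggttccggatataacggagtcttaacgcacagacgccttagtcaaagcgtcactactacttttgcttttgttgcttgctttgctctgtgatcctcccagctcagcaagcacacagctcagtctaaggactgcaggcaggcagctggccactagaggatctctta
Over 300 bases, from 250 before to 50 after the start, the 2 promoters were identical at 56.5% of aligned bases, against 95.2% for the coding sequences. The letters AGGTCA, known as the core of nuclear receptor elements, were searched on both strands, and so was the repeat AGGTCANAGGTCA with up to 2 mismatches, which overlaps the first motif. Neither was in this window of Acot1, Acot2, Acot7, Acot8 or Acot9, while 16% of 27025 promoters of that length held the first and 3.81% the second. The windows used for Acot7, chr4:152185358-152185657, and Acot8, chr2:164804832-164805131, lay at starts inside the gene bounds given below. The outermost starts of these genes were not searched. The promoter of Acot13 was not among those used.

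Acot1 was lowest in diesel TAC hearts. It stood at 1.23, 1.90 and 1.69 CPM in the diesel TAC hearts, against 12.6, 8.36 and 8.08 CPM in the diesel sham hearts. In filtered air it stood at 3.57, 2.51 and 6.45 CPM in the TAC hearts, against 8.36, 7.63 and 6.81 CPM in the sham hearts. All 3 diesel TAC hearts were below the other 9 hearts, and the air TAC hearts were below the air sham hearts, in 1 of them by a small margin. After diesel exhaust the log2 change with TAC was -2.60 ± 0.40 (SE, n = 3 hearts a group, as throughout), a 6.07-fold lower level. In filtered air it was -0.86 ± 0.37, or 1.82-fold lower. These values, and the comparison of both exposures, are the ones that chose the gene.

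Acot2, with far more counts, was also lowest in diesel TAC hearts and lower in air TAC than in air sham hearts, while its sham groups had like levels. It stood at 28.3, 35.7 and 34.9 CPM in diesel TAC hearts, against 64.9, 84.1 and 90.6 CPM in diesel sham hearts. Its level was 45.9, 43.4 and 65.1 CPM in air TAC hearts, against 91.2, 72.5 and 75.6 CPM in air sham hearts. The diesel TAC hearts were again below the other 9, the TAC and sham hearts did not overlap within either exposure, and the highest air TAC heart was replicate 3 for both genes. The log2 change with TAC was -1.28 ± 0.19 after diesel exhaust, 2.42-fold lower, and -0.63 ± 0.19 in filtered air, 1.55-fold lower. As background, 11.2% of genes after diesel exhaust and 7.57% in filtered air were lower in every TAC heart than in every sham heart.

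**Figure D1:**
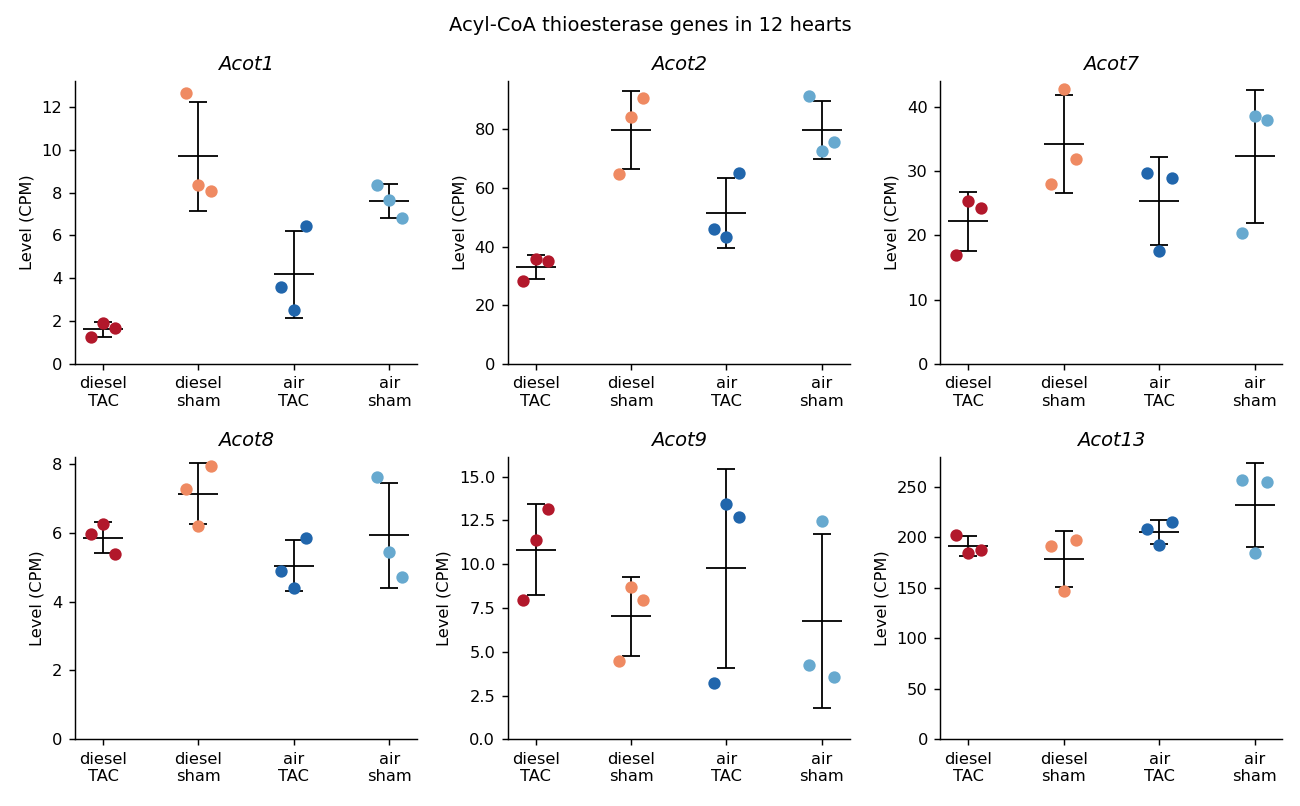
Levels of the 6 thioesterase genes in CPM (vertical axes, from 0) in diesel TAC, diesel sham, air TAC and air sham hearts; each point is 1 heart, and the bars are the mean ± SD of 3 hearts. Acot1 and Acot2 are lowest in the diesel TAC hearts, while TAC and sham hearts overlap in both exposures for Acot8, Acot9 and Acot13.

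Set directly against each other, diesel TAC hearts had less of both transcripts than air TAC hearts, by a log2 change of -1.39 ± 0.40 for Acot1 and -0.64 ± 0.19 for Acot2, with no overlap between the 3 hearts of each group. Of all genes tested, 3.76% were lower without overlap in this comparison. Diesel sham and air sham hearts overlapped for both genes, with a log2 change of 0.35 ± 0.36 for Acot1 and -0.00072 ± 0.19 for Acot2. The difference between the 2 responses to TAC, after diesel exhaust minus in filtered air, was -1.74 ± 0.54 for Acot1 and -0.64 ± 0.27 for Acot2. The comparisons with TAC and those between exposures use the same hearts and are not independent of each other. In edgeR's quasi-likelihood test with adjustment over 13626 genes, no gene of the table passed 0.05 between exposures in TAC hearts (0% called), in sham hearts (0%) or in the interaction (0%). At an unadjusted p under 0.05 there were 255, 503 and 327 genes in these comparisons. Limma voom also called 0 in each, and DESeq2 called 1, 0 and 1.

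The size of the Acot1 difference between exposures rested in part on air TAC replicate 3, the air TAC heart with the most Acot1. Without it, Acot1 changed with TAC in filtered air by -1.32 on the log2 scale, diesel TAC against air TAC hearts came to -0.93, and the difference between both responses to -1.28. The size for Acot2 also depended on single hearts. With a library left out, it ran from -0.75 to -0.44 between diesel TAC and air TAC hearts. The difference between its responses ran from -0.78 to -0.44. With the counts of Acot1 and Acot2 added together, the fall with TAC after diesel exhaust was -1.37 ± 0.19, and the difference between the responses was -0.72 ± 0.27.

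After diesel exhaust the 2 genes did not fall in the same proportion. Per Acot1 count there were 22.9, 18.8 and 20.6 Acot2 counts in diesel TAC hearts, a mean of 20.8 ± 2.06 (SD, n = 3), and 5.13, 10.1 and 11.2 in diesel sham hearts, a mean of 8.80 ± 3.23. In filtered air the ratio was 12.8, 17.3 and 10.1 in TAC hearts, a mean of 13.4 ± 3.64, and 10.9, 9.5 and 11.1 in sham hearts, a mean of 10.5 ± 0.873. The ratios of air TAC and air sham hearts overlapped. The lowest diesel TAC ratio was above the highest ratio of the other 9 hearts. This ratio is built from the values that chose both genes and is given without a test. Its counts include any reads that the 2 genes share.

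**Figure D2:**
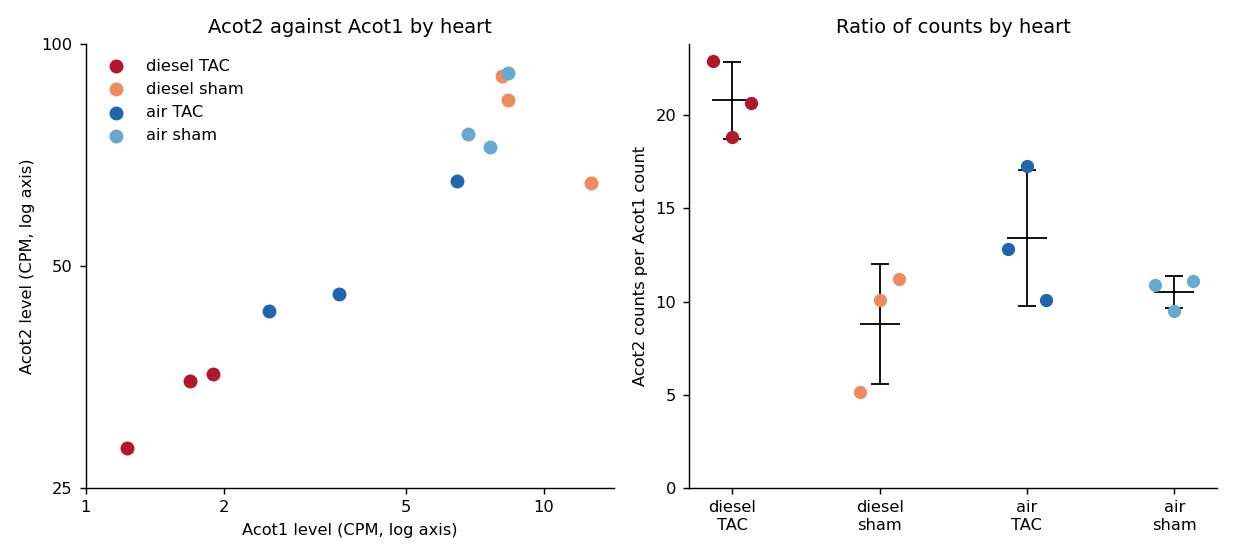
Left, Acot2 level against Acot1 level in CPM, both on log axes, 1 point a heart, coloured by group. Right, Acot2 counts per Acot1 count in each heart from 0, with mean ± SD of 3 hearts. The diesel TAC hearts lie lowest on both axes on the left, and highest on the right at 18.8 to 22.9.

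The other members are spread over the cell's compartments and over the genome. Acot7 (chr4:152178100-152271855, plus strand) encodes a cytosolic long-chain enzyme best known from brain. It stood at 17.0, 25.4 and 24.3 CPM in diesel TAC hearts, against 28.1, 42.8 and 31.9 CPM in diesel sham hearts, and at 29.8, 17.54 and 28.9 CPM in air TAC hearts, against 20.4, 38.6 and 38.0 CPM in air sham hearts. After diesel exhaust TAC and sham hearts did not overlap, while in filtered air they did. Of all genes tested, 11.2% were lower without overlap after diesel exhaust. The log2 change of -0.62 ± 0.26 after diesel exhaust missed the threshold (edgeR adjusted p = 0.229), as did that of -0.34 ± 0.26 in filtered air (edgeR adjusted p = 0.709). The difference between the responses in both exposures was -0.28 ± 0.37, which did not pass. With both exposures averaged the log2 change with TAC was -0.48 ± 0.18 (edgeR adjusted p = 0.123). Leaving out air sham replicate 1, the air sham heart with the least Acot7, made this -0.61 with an edgeR adjusted p of 0.0336, where the alternatives ranged from 0.0336 to 0.303.

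Acot8 (chr2:164792768-164820219, minus strand) encodes a peroxisomal enzyme of broad specificity. Its level was 5.95, 6.25 and 5.37 CPM in diesel TAC hearts, against 7.28, 6.18 and 7.94 CPM in diesel sham hearts. In filtered air it was 4.88, 4.39 and 5.85 CPM in TAC hearts, against 7.62, 5.43 and 4.70 CPM in sham hearts. Groups overlapped in both exposures, and the log2 changes of -0.29 ± 0.31 and -0.24 ± 0.32 were smaller than their errors (edgeR adjusted p = 0.729 and 0.870).

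Acot9 (chrX:155262443-155297654, plus strand), a mitochondrial enzyme, varied most of the 6 among hearts of 1 group, relative to its mean. It stood at 7.98, 11.4 and 13.1 CPM in diesel TAC hearts, against 4.47, 8.69 and 7.94 CPM in diesel sham hearts. In filtered air its level was 3.22, 13.4 and 12.7 CPM in TAC hearts, against 4.23, 12.5 and 3.57 CPM in sham hearts. Low and high hearts occurred on both sides in filtered air, and the changes of 0.63 ± 0.52 and 0.53 ± 0.53 were not separable from 0 (edgeR adjusted p = 0.626 and 0.801). Acot10, its near copy on chromosome 15, read 1.19 CPM in the same low air TAC heart, replicate 1, and 5.89 and 4.78 CPM in the other two. In the low air sham hearts, replicates 1 and 3, Acot10 read 4.45 and 2.11 CPM, and 4.40 CPM in replicate 2, where Acot9 was high, so the pair did not move together there.

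Acot13 (chr13:24817955-24831489, minus strand) encodes a small thioesterase found at mitochondria that acts on long-chain acyl-CoA. It was the most abundant member, at 202, 185 and 187 CPM in diesel TAC hearts, against 191, 147 and 197 CPM in diesel sham hearts. In filtered air it was at 208, 192 and 215 CPM in TAC hearts, against 257, 184 and 255 CPM in sham hearts. Every pair of groups overlapped. The log2 change with TAC was 0.10 ± 0.17 after diesel exhaust and -0.18 ± 0.17 in filtered air (edgeR adjusted p = 0.844 and 0.790). Between diesel sham and air sham hearts it was -0.38 ± 0.17, which did not pass (edgeR adjusted p = 0.996).

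In the TAC comparisons, none of these 4 members passed the threshold. Over the whole table, 3.24% of genes passed after diesel exhaust, 0.829% in filtered air and 8.01% with the exposures averaged. A member that misses the threshold is not shown to be constant: in filtered air the error of Acot8 leaves room for a change of the size seen in Acot2. Between exposures within TAC hearts their log2 changes were -0.20 ± 0.26 for Acot7, 0.21 ± 0.32 for Acot8, 0.15 ± 0.51 for Acot9 and -0.10 ± 0.17 for Acot13, each with an edgeR adjusted p of 1.00.

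**Figure D3:**
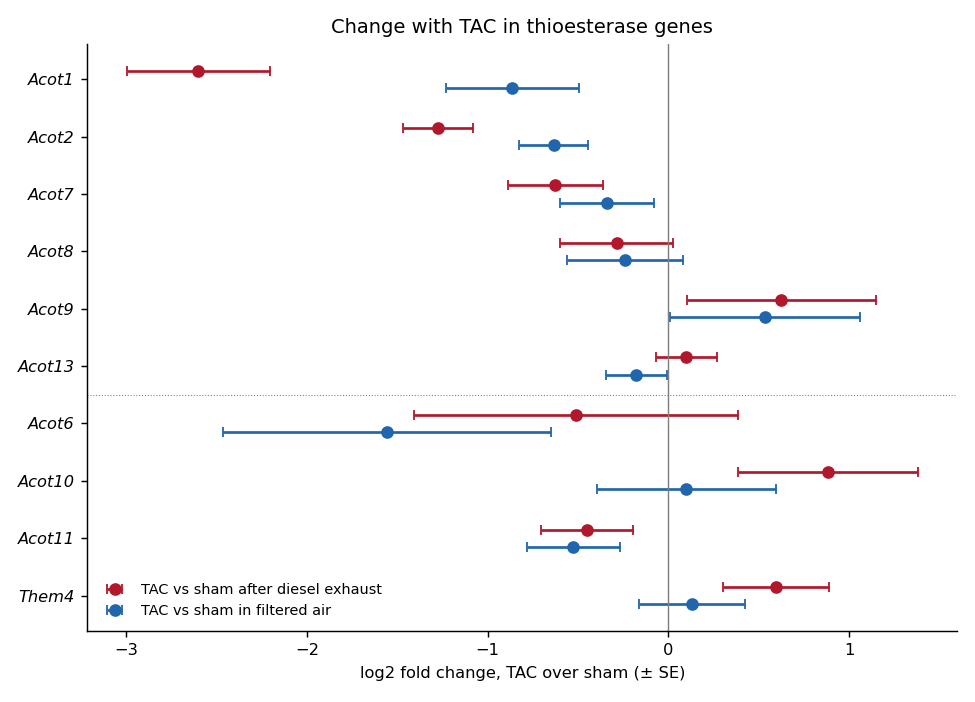
Log2 fold change of TAC over sham (horizontal axis, bars ± SE) after diesel exhaust and in filtered air for the 6 genes, above the dotted line, and for the 4 other thioesterase genes with enough counts, below it. Acot1 and Acot2 lie farthest below 0 after diesel exhaust, at -2.60 and -1.28.

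Per length, using the merged exons of each gene, the members kept a wide order in every group. Over the 12 hearts Acot13 averaged 271 ± 40.8 CPM per kb (SD), Acot2 27.8 ± 10.3, Acot7 13.4 ± 3.90, Acot9 3.78 ± 1.75, Acot8 2.998 ± 0.572 and Acot1 1.47 ± 0.906 CPM per kb. Within each group the first 3 places by merged exons did not overlap with the place below them. The order of Acot2 and Acot7 depended on the length used. By the longest transcript they averaged 15.0 ± 1.85 and 14.8 ± 3.05 CPM per kb in diesel TAC hearts. Acot8 and Acot9 overlapped in every group but diesel TAC, and Acot9 overlapped with Acot1 in those same 3 groups. In diesel sham hearts, where Acot1 averaged 2.47 ± 0.652 CPM per kb, Acot8 overlapped with it as well, at 3.57 ± 0.443 CPM per kb. In diesel TAC hearts Acot1, at 0.410 ± 0.0866 CPM per kb, lay below every other member. Over the 12 hearts Acot1 had the lowest mean of the 6 by each length tried. By coding length it averaged 4.58 CPM per kb, beside 6.22 for Acot8 and 6.51 for Acot9, and by the longest transcript 2.54 CPM per kb, beside 5.20 for Acot8 and 4.91 for Acot9.

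Beside these genes, 10 further thioesterase genes were measured. Acot4, Acot3, Acot5 and Acot6 follow Acot1 on chromosome 12 and belong to the same gene cluster, and they were barely present. Acot3, 83.9% identical to Acot1 in aligned coding bases, summed to 13 counts over the diesel TAC hearts, 16 over the diesel sham hearts, 4 over the air TAC hearts and 17 over the air sham hearts. In the same order of groups, Acot4 summed to 15, 20, 17 and 8 counts and Acot5 to 0, 1, 1 and 2. Acot6 averaged 0.659 ± 0.323 CPM in diesel TAC hearts and 0.923 ± 1.20 CPM in diesel sham hearts, and 0.485 ± 0.121 CPM in air TAC hearts and 1.44 ± 0.528 CPM in air sham hearts. Acot12, an acetyl-CoA hydrolase of liver, had 8 counts in diesel TAC hearts and 0 in the other groups. Them5 had 0 counts in all 12 libraries, and Baat, a bile acid conjugating enzyme, had 17, 3, 2 and 0 counts in diesel TAC, diesel sham, air TAC and air sham hearts.

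The genes on either side of the cluster that were measured, Numb, a regulator of Notch signalling, Riox1 and Dnal1, did not pass in any comparison. After diesel exhaust their log2 changes with TAC were 0.45 ± 0.25, -0.69 ± 0.44 and 0.37 ± 0.32 (edgeR adjusted p = 0.406, 0.482 and 0.637). Levels in diesel TAC against diesel sham hearts averaged 13.3 and 9.76 CPM for Numb, 2.63 and 4.28 CPM for Riox1, and 7.64 and 5.90 CPM for Dnal1. Numb was higher in each diesel TAC heart than in each diesel sham heart, as were 11.1% of all genes tested. Between diesel TAC and air TAC hearts the log2 change of Numb was 0.38 ± 0.25, which did not pass.

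The 4 of these 10 with enough counts were Acot6, Acot10, Acot11 and Them4, and none passed the test in any comparison. Acot6 was lower in each air TAC heart than in each air sham heart, on 12 and 34 counts in all. Its log2 change there was -1.56 ± 0.91 (edgeR adjusted p = 0.569), and 7.57% of all genes tested were lower without overlap in filtered air. Acot11, an enzyme known from brown fat, averaged 16.4 ± 5.06 CPM in diesel TAC hearts and 22.5 ± 3.30 CPM in diesel sham hearts, and 14.5 ± 2.62 CPM in air TAC hearts and 20.8 ± 5.96 CPM in air sham hearts. Its change averaged over exposure was -0.49 ± 0.18 on the log2 scale (edgeR adjusted p = 0.108). Them4 was higher in each diesel TAC heart than in each diesel sham heart, at 11.8 ± 1.10 and 7.84 ± 2.36 CPM, a log2 change of 0.60 ± 0.29 (edgeR adjusted p = 0.332). Of all genes tested, 11.1% were higher without overlap after diesel exhaust.

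Genes that make, carry and burn acyl-CoA were counted from lists. After diesel exhaust, the listed genes that passed the test were all lower with TAC. Counted were 6 of 23 tested genes of the carnitine shuttle and mitochondrial beta-oxidation, 5 of 12 of triacylglycerol storage and lipolysis, 2 of 11 of coenzyme A synthesis, transport and breakdown, 1 of 11 acyl-CoA synthetases, 1 of 11 of fatty acid uptake and binding, 2 of 19 PPAR alpha targets, 0 of 18 of peroxisomal oxidation and 0 of 16 PPAR, RXR, ERR and PGC-1 regulators. Over all genes 1.49% were called lower. The median log2 change was -0.55 for the beta-oxidation list, with 23 of 23 genes below 0, -0.35 for triacylglycerol storage and -0.46 for the regulators, against 0.00061 for all genes tested. It was -0.53 for the synthetases, -0.30 for the PPAR alpha targets, -0.28 for peroxisomal oxidation and -0.18 for coenzyme A. For fatty acid uptake and binding it was -0.059, with 7 of 11 genes below 0. In filtered air 1 gene of all these lists passed, Slc27a1, where 0.22% of all genes were called lower, and the beta-oxidation median was -0.33. The uptake median there was 0.034, with 5 of 11 genes below 0. Medians of the other lists in filtered air were also below 0. They were -0.35 for the synthetases, -0.19 for the PPAR alpha targets and -0.19 for the regulators. For triacylglycerol storage the median was -0.17, for peroxisomal oxidation -0.13 and for coenzyme A -0.038, against 0.0051 for all genes tested. Some genes stand in more than 1 list.

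Slc27a1, a fatty acid transport protein of the plasma membrane, fell to 49.2 ± 8.18 CPM in diesel TAC hearts, against 132 ± 22.5 CPM in diesel sham hearts, a log2 change of -1.42 ± 0.20 (edgeR adjusted p = 2.45e-04). In filtered air it stood at 60.9 ± 17.1 CPM in TAC hearts, against 111 ± 12.98 CPM in sham hearts (-0.87 ± 0.20, edgeR adjusted p = 0.0392). Among beta-oxidation genes after diesel exhaust, Acaa2, the mitochondrial thiolase, changed by -1.12 ± 0.21 on the log2 scale (edgeR adjusted p = 0.00393). Etfb, a subunit of the electron transfer flavoprotein, changed by -0.99 ± 0.20, Hadha, of the trifunctional protein, by -0.78 ± 0.17, and Acadvl, the very-long-chain acyl-CoA dehydrogenase, by -0.71 ± 0.17 (edgeR adjusted p = 0.00769, 0.00975 and 0.0203).

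On the coenzyme A side, 2 of 11 tested genes were lower after diesel exhaust, with a list median of -0.18 on the log2 scale and 3 genes above 0 that did not pass. Slc25a42, which carries coenzyme A into mitochondria, changed by -1.05 ± 0.25 and Pank1, a pantothenate kinase at the first step of coenzyme A synthesis, by -0.69 ± 0.18 (edgeR adjusted p = 0.0208 and 0.0425). Acss1, the mitochondrial acetyl-CoA synthetase, changed by -0.88 ± 0.20 (edgeR adjusted p = 0.0163). Of lipid droplet genes, Plin5, a perilipin of oxidative tissue, changed by -0.92 ± 0.21, Dgat2, of triacylglycerol synthesis, by -0.87 ± 0.21, and the lipases Pnpla2 by -0.67 ± 0.17 and Lipe by -1.01 ± 0.27 (edgeR adjusted p = 0.0170, 0.0241, 0.0376 and 0.0389).

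Most of these calls were lost with fewer hearts, while the changes kept their direction. Of the 12 genes named after diesel exhaust, Slc27a1 and Acaa2 kept their call whichever library was left out. The other 10 lost it without diesel TAC replicate 3, where 1 of the beta-oxidation genes, 0 of the triacylglycerol genes and 0 of the coenzyme A genes were still called. Calls fell over the whole table too: 56 genes were called lower without that heart, against 203 with all 12 libraries. Without that heart the log2 changes of these 10 ran from -0.93 for Plin5 to -0.63 for Acadvl, and that of Acss1 was -0.90. Whichever library was left out, Hadha lay between -0.84 and -0.70 and Pank1 between -0.76 and -0.58, while Plin5 had the widest range, from -1.12 to -0.52. Hadha lost its call in that case alone and Etfb also without diesel TAC replicate 2. Acadvl lost it without diesel sham replicate 1 or diesel TAC replicate 2 as well, and Slc25a42 without diesel sham replicate 3 or diesel TAC replicate 2. Acss1 lost it also without diesel sham replicate 1 or diesel TAC replicate 1 or 2, Plin5 without diesel sham replicate 2 or diesel TAC replicate 1 or 2, and Dgat2 without diesel sham replicate 1 or 2 or diesel TAC replicate 1. Lipe lost it in 5 of the 12 cases and Pank1 and Pnpla2 in 7, air TAC replicate 3 among them, and Pnpla2 also without air sham replicate 2. Lipe and Plin5 missed the threshold too when only the compared groups were fitted. The call of Slc27a1 in filtered air was lost in 6 of the 12 cases, with an edgeR adjusted p of up to 0.274 without air TAC replicate 2, and when only the compared groups were fitted.

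With both exposures averaged, 6 hearts a side, more of these genes passed, all of them lower with TAC. They were 13 of 23 for beta-oxidation, 5 of 12 for triacylglycerol storage, 5 of 19 PPAR alpha targets, 3 of 11 synthetases, 2 of 11 each for coenzyme A and for uptake, 2 of 18 for peroxisomal oxidation and 2 of 16 regulators. Slc27a1, Acaa2, Etfb, Hadha, Slc25a42, Pank1, Acss1, Plin5, Dgat2 and Lipe were among them with any library left out, and Pnpla2 lost its call without air TAC replicate 2, at an edgeR adjusted p of 0.0513. Over all genes 3.91% were called lower. The long-chain synthetase Acsl1, which makes the acyl-CoA that thioesterases cleave, changed by -0.50 ± 0.12 and Eci1, an enoyl-CoA isomerase, by -0.74 ± 0.13 (edgeR adjusted p = 0.0140 and 8.63e-04). The carnitine carrier Slc25a20 changed by -0.49 ± 0.12 and the retinoid X receptor Rxrg by -0.55 ± 0.13 (edgeR adjusted p = 0.0127 and 0.0135), and these 4 kept their call whichever library was left out. Ppara itself changed by -0.53 ± 0.14 (edgeR adjusted p = 0.0220, up to 0.0699 without air TAC replicate 2) and lost its call without 5 of the 12 libraries. Acsm5, a medium-chain synthetase, changed by -1.62 ± 0.42 (edgeR adjusted p = 0.0187) and lost its call without diesel TAC replicate 3, at 0.0554. Lpl, lipoprotein lipase, Phyh, of peroxisomal alpha-oxidation, Crat, carnitine acetyltransferase, and Acadm, the medium-chain dehydrogenase, also passed (log2 changes of -0.51 ± 0.14, -0.47 ± 0.13, -0.63 ± 0.18 and -0.50 ± 0.13, edgeR adjusted p = 0.0324, 0.0316, 0.0337 and 0.0218), and each lost the call without 5 to 8 of the 12 libraries. Between exposures, none of the listed genes passed in TAC or in sham hearts.

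**Figure D4:**
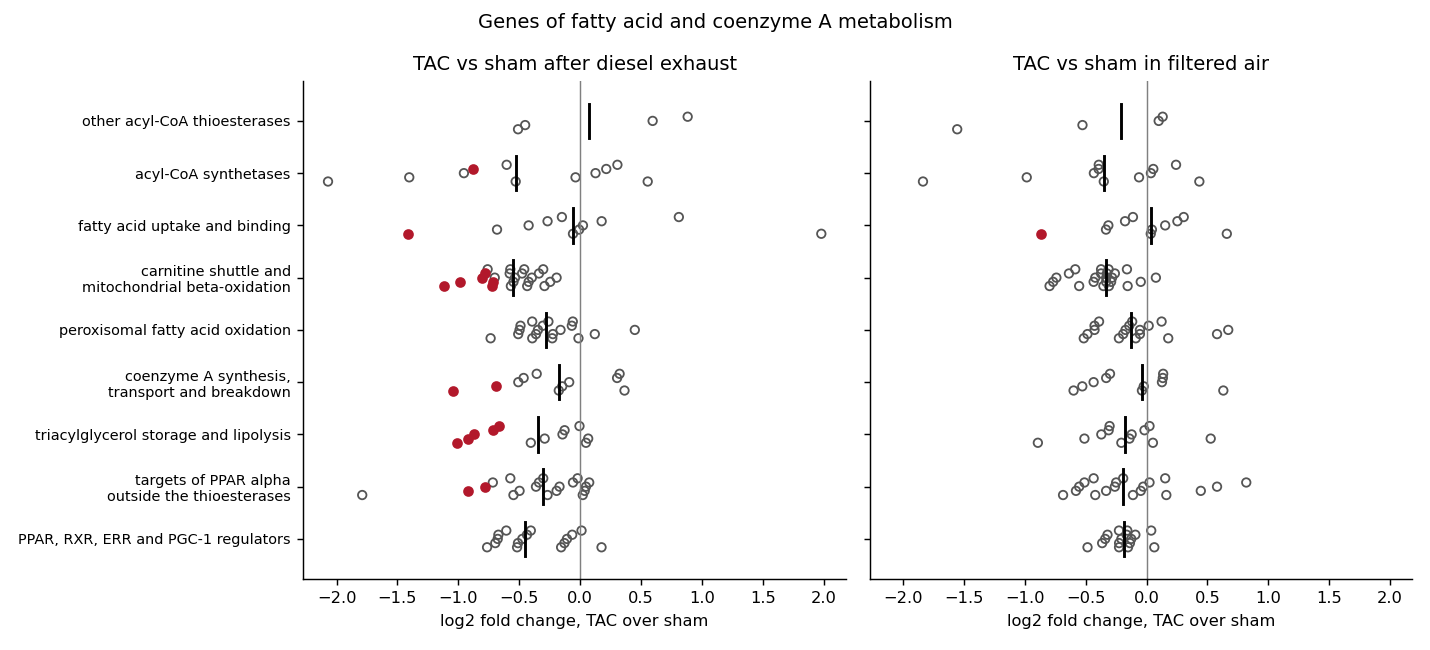
Log2 fold change of TAC over sham for each tested gene of 9 lists of fatty acid and coenzyme A metabolism, after diesel exhaust on the left and in filtered air on the right. Filled points passed an edgeR adjusted p of 0.05, open points did not, and the black bar is the list's median, which for beta-oxidation is -0.55 after diesel exhaust and -0.33 in filtered air.

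Some cell type markers moved with the same contrast. The summed level of 12 ventricular cardiomyocyte markers was 43133 to 54184 CPM in diesel TAC hearts and 66100.1 to 80564 CPM in diesel sham hearts, and 43898 to 69043 CPM in air TAC hearts and 63225 to 84006 CPM in air sham hearts. Of these 12 markers 3 were called lower after diesel exhaust and 1 in filtered air, with median log2 changes of -0.53 and -0.42, none at 0 counts. In the same order, 1.49% and 0.22% of all genes tested were called lower, with medians of 0.00061 and 0.0051. The summed level of 10 fibroblast markers was 3129 to 3632 CPM in diesel TAC hearts and 1516 to 1966 CPM in diesel sham hearts, and 2230.4 to 3601 CPM in air TAC hearts and 1624 to 1738 CPM in air sham hearts, with 6 of 10 called higher after diesel exhaust and 4 of 10 in filtered air. Of all genes tested, 1.75% were called higher after diesel exhaust and 0.609% in filtered air. Macrophage markers summed to 377 to 405 CPM in diesel TAC hearts and 207 to 398 CPM in diesel sham hearts, and to 302 to 463 CPM in air TAC hearts and 204 to 271 CPM in air sham hearts, with 1 of 10 called higher after diesel exhaust and 0 in filtered air. Endothelial markers summed to 950.1 to 1040 CPM in diesel TAC hearts and 863 to 900 CPM in diesel sham hearts, and to 900 to 1041 CPM in air TAC hearts and 904 to 936 CPM in air sham hearts, with 0 of 10 called in either exposure. Smooth muscle and pericyte markers summed to 2197 to 2441 CPM in diesel TAC hearts and 2004 to 2309 CPM in diesel sham hearts, and to 2001 to 2386 CPM in air TAC hearts and 1708 to 2021 CPM in air sham hearts, with 1 of 10 called lower after diesel exhaust and 0 in filtered air. Adipocyte markers summed to 263 to 457 CPM in diesel TAC hearts and 291 to 366 CPM in diesel sham hearts, which overlapped. In filtered air they summed to 372 to 457 CPM in TAC hearts and 297 to 355 CPM in sham hearts, which did not. Of the 10 adipocyte markers only 3 had enough counts to be tested, so these sums rest on few genes, and 0 were called in either exposure. Ucp1 was at 0 in every group and Lep in every group but diesel sham. Retn was at 0 in diesel sham hearts and Plin1 in air sham hearts. The part of these cell type shifts in the falls of Acot1, Acot2 and the listed genes was not tested, and in bulk RNA fewer cells of a type and less RNA per cell cannot be told apart.

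The genes whose pattern over the 12 hearts came closest to each of the pair were found by the root mean square difference of log2 CPM, each gene centred on its own mean, among 13262 genes of at least 1 CPM. For Acot1 these were Adra1b, the alpha-1B adrenergic receptor, at 0.40, Slc22a3, an organic cation transporter, at 0.44, Mylk4, a muscle kinase, at 0.45, Lingo3 at 0.45 and Fbp2, muscle fructose bisphosphatase, at 0.45. For Acot2 they were Ech1, a dienoyl-CoA isomerase of fatty acid breakdown, at 0.21, Slc26a6, an anion exchanger, at 0.22, and Apbb1, Car14 and Dhrs11 at 0.24 each. Acot2 was in place 12 for Acot1, and Acot1 in place 2060 for Acot2, whose smaller range is nearer to that of many genes. Ech1 averaged 357 CPM in diesel TAC hearts and 777 CPM in diesel sham hearts, and 479 CPM in air TAC hearts and 801 CPM in air sham hearts. Adra1b averaged 5.88 CPM in diesel TAC hearts and 23.2 CPM in diesel sham hearts, and 10.1 CPM in air TAC hearts and 21.9 CPM in air sham hearts. This likeness is a description of these 12 libraries.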

How the data were processed

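The authors deposited raw counts per Entrez gene number. Per the submitters' processing notes, reads were trimmed with cutadapt 1.6, aligned with Subread 1.4.2 to mm10 and counted with featureCounts. The sources used here give no strand setting, annotation version or handling of multi-mapping reads. Symbols came from RefSeq (GRCm38.p6) for 25275 genes and GENCODE M21 for 18, leaving 1886 without one. The counts were analysed in R 4.3.3 with edgeR 4.0.16: TMM factors, filterByExpr with a minimum count of 10, and a quasi-likelihood fit with a mean per group on all 12 libraries (8 residual degrees of freedom). Benjamini-Hochberg adjustment ran over all tested genes of a comparison, with a threshold of 0.05. DESeq2 1.42.0, limma 3.58.1 voom, other scalings, no filter, and leaving out each library were the alternatives, and the fit was tested on simulated counts. The 6 members and all lists were chosen with earlier results of these data known. Named list genes are up to 4 of each list past the threshold with the smallest p. Mitochondrially encoded RNA took 18.3% to 32.4% of counts, and log2 CPM of any 2 libraries correlated at 0.907 to 0.970. Sequence windows were compared over all GENCODE M21 transcripts. No protein sequences were used.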

Additional observations from a re-analysis of the deposited data

How the results depend on the processing

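After diesel exhaust 442 genes were called with TAC, 676 by DESeq2, and 188 to 530 when a library was left out. In filtered air 113 were called, 258 by DESeq2, 247 without a filter on low counts, and 39 to 143 with a library left out, fewest without air TAC replicate 2. Averaged over exposure 1091 were called, and 631 to 1213 with a library left out, fewest without air TAC replicate 2. Between exposures in TAC hearts, and in the interaction, 0 were called, against 1 each by DESeq2 and 1 each without the filter. After diesel exhaust DESeq2 called 12 beta-oxidation genes, 5 PPAR alpha targets, 2 synthetases and 2 uptake genes. With a library left out, the counts ran from 1 to 8 for beta-oxidation, 0 to 5 for triacylglycerol storage and 0 to 2 for coenzyme A. The log2 changes of Acot1 and Acot2 with TAC stayed below 0 under every alternative. On its own counts Acot1 ran from -2.73 to -2.36 after diesel exhaust and from -1.32 to -0.60 in filtered air, with -1.37 and -0.65 for the sum of both genes. Acot2 ran from -1.41 to -1.18 and from -0.84 to -0.52. Changes near 0 turned sign, none of them called, and the cause was not tested. With a library left out, Acot13 ran from -0.022 to 0.17 with TAC after diesel exhaust, and Acot9 from -0.27 to 0.44 between exposures in TAC hearts. Between exposures in sham hearts Acot7 ran from -0.16 to 0.25 and Acot9 from -0.23 to 0.85, and Acot9 with Acot10 added gave -0.077. In the interaction Acot8 ran from -0.28 to 0.084 and Acot9 from -0.70 to 0.39. No paired analysis was possible because the labels give no replicate numbers shared between groups. Depth limits Acot1 most, with 51 counts in all over the diesel TAC hearts.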
